A study of Mus musculus with 2 samples.

Results

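The carboxylesterase genes described here are 10 mouse genes of the Ces family, namely Ces1b, Ces1c, Ces1d, Ces1e, Ces1f, Ces1g, Ces2a, Ces2c, Ces2e and Ces3a. They were taken by symbol from a table of 15348 liver genes, and all 10 were present. Liver RNA came from female NOG-TKm30 mice aged 16 weeks. These are NOG mice (a severely immunodeficient strain) that carry a herpes simplex virus thymidine kinase cDNA, HSVtk mutant clone 30, and by the strain label and titles controls carried it too. The transgene is driven by the mouse transthyretin enhancer and promoter, which is active in hepatocytes. Ortho-toluidine (OTD) is an aromatic amine. The treated mice were given 0.6% OTD during 1 week, followed by 3 weeks of 0.3%, so that exposure lasted 4 weeks, and controls were given 0%. Each group was sequenced as 1 pooled library, made from 3 control or 5 OTD mice. C57BL mice are named in the labels' treatment protocol, but NOG-TKm30 in the strain label and titles. Both columns of the table also carry the word Wild, which no label explains. Because each group had 1 pool, the variation between mice was not measured and no difference has a replicate check.

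Carboxylesterases are serine hydrolases that cleave ester and amide bonds in drugs, environmental chemicals and lipids. In hepatocytes most of them sit in the lumen of the endoplasmic reticulum, held there by a short signal at the carboxyl end of the protein. Several act on stored triglyceride and so bear on the supply of lipid for very low density lipoprotein. OTD itself is the amine that liver amidases release from the local anaesthetic prilocaine.

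The 10 genes lie in 2 clusters on chromosome 8 of GRCm38 (the mm10 assembly). The Ces1 genes that were listed span 93020214 to 93337308, and the Ces2, Ces3 and Ces4 genes span 104734003 to 105150109. All 10 are protein-coding, with 12 to 14 exons and a coding sequence of 1665 to 1716 bases in GENCODE M21. Member pairs of the same subfamily had 71.9% to 88.8% identical coding bases (18 pairs), and pairs from different subfamilies 54.9% to 59.2% (27 pairs). Ces1b and Ces1c were the closest pair, and Ces1d and Ces1g had 81.6% identical bases. The matrix of coding identity shows the Ces1 and Ces2 subfamilies as blocks, with Ces3a apart from both.

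**Figure D1:**
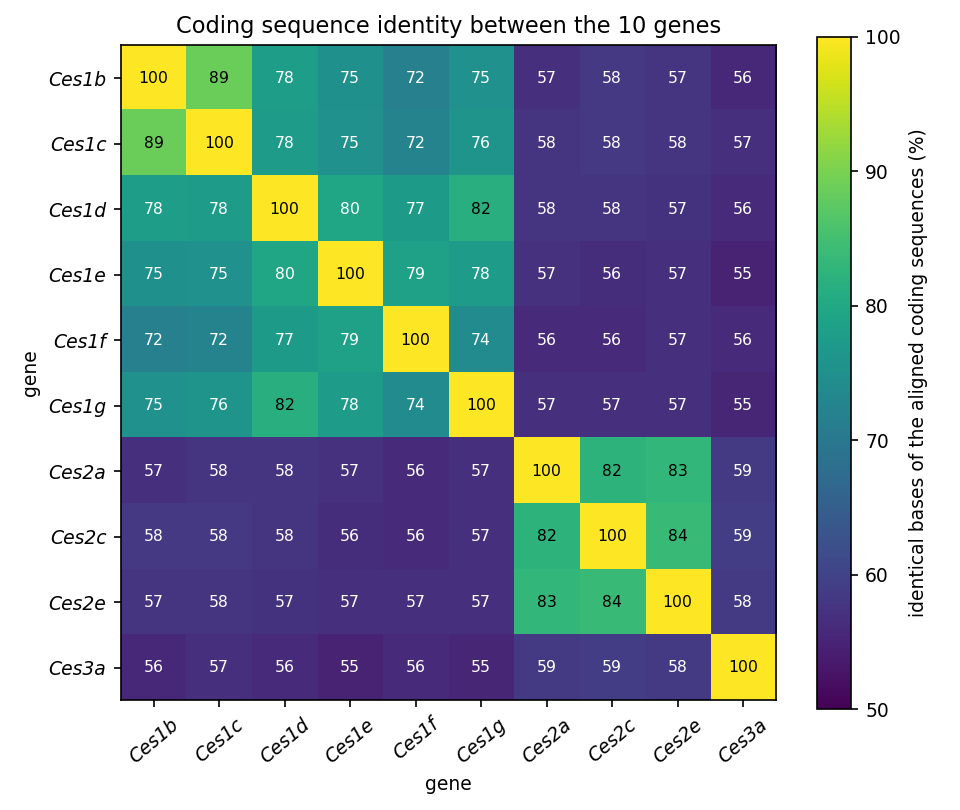
Percent of identical bases between the aligned coding sequences of each pair of the 10 genes, as colour and as whole numbers. Both axes list the genes, the diagonal is each gene with itself, and the brightest pair off the diagonal is Ces1b with Ces1c at 88.8%.

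The ends of the coding sequences are shown because the retention signal is encoded there. Each line gives the last 24 coding bases of the GENCODE M21 transcript, 5′ to 3′, with the 4 codons before the stop in capitals.
Ces1b: actgagcacAGAGAACACAAAtga
Ces1c: actgaacacACAGAACACAAAtga
Ces1d: cacagggaaCATGTTGAGCTCtga
Ces1e: ccgacagaaCACACTGAGCTGtga
Ces1f: cagccatacCACAATGAGCTGtga
Ces1g: catagggaaCATGTTGAACTGtga
Ces2a: caggacaagCATGCAGAGCTGtag
Ces2c: caggacaagCACAGGGAGCTTtag
Ces2e: caggagaggCACAAAGAGTTGtag
Ces3a: aggaaagttCCAGAGGAGCTCtga
In 8 of the 10 genes the last codons before the stop were GAG or GAA followed by CTN or TTG, and in 7 of these 8 the run of capitals opens with CAT or CAC. Ces3a is the exception among the 8, opening with CCA. Ces1b and Ces1c instead end in CACAAA. Ces1c encodes an esterase that is secreted into blood plasma.

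Bases upstream of the annotated start sites are shown for the genes with the highest ratios, Ces1g and Ces2c, and for Ces1c, the most abundant member, with its closest copy Ces1b. RefSeq promoter entries on GRCm38.p6 were found for 7 of the 10 genes and not for Ces1d, Ces1f and Ces3a. Each entry holds 250 bases before and 50 after a start site. Only the bases upstream of both the RefSeq and the GENCODE start are printed, since for Ces1g the GENCODE start lies 99 bases upstream of the RefSeq start. Sequences read 5′ to 3′ on the strand of the gene, and capitals mark CCAAT or its reverse complement.
Ces1g (chr8:93337309-93337459, minus strand): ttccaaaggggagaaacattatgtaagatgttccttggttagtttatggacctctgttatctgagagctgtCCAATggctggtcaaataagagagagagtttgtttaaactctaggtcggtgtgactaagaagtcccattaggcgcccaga
Ces2c (chr8:104846818-104847067, plus strand): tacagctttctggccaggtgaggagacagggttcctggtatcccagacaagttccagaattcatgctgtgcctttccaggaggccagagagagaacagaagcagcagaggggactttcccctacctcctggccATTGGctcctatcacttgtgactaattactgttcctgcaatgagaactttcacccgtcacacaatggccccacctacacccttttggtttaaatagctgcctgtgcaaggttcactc
Ces1c (chr8:93131284-93131533, minus strand): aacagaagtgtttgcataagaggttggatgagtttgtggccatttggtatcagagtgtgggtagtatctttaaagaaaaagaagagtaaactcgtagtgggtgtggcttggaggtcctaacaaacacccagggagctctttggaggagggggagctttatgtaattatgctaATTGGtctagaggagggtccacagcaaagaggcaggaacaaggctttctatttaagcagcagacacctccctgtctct
Ces1b (chr8:93080018-93080190, minus strand): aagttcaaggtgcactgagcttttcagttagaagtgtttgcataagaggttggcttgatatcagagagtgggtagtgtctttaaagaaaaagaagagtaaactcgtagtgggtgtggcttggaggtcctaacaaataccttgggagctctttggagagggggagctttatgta
The entries of Ces1b (the first of 2) and Ces1c had 81.6% identical bases, and those of Ces2a and Ces2c 65.0%. The other 19 pairs had 44.1% to 54.9%. Both strands were searched for 4 motifs, and the matches did not overlap each other. CCAAT was found in the entries of 5 of the 7 genes (Ces1b, Ces1c, Ces1g, Ces2a and Ces2c), against 37.4% of all 32851 promoter entries. The percentages here count entries and not genes, and Ces1b has 2 entries. The Ces1b match lies downstream of the GENCODE start and so is not among its printed bases. TATAAA was found in Ces1g alone of the 7, at 26 bases before its RefSeq start, against 13.6% of all entries. On the strand of the gene this match reads as the reverse complement, TTTATA. It lies downstream of the GENCODE start and so is not among the printed bases. AGGTCA, a nuclear receptor half-site, was found in Ces2a alone of the 7, against 16.3%. TGACNNNGC, the core of the antioxidant response element, was found in 0 of the 7, against 12.4%. A match is a description of these letters and not a binding site.

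The control library held 13569189 reads and the OTD library 14685193, as recovered from the deposited values. Levels below are scaled CPM (reads scaled to a common total, then divided by the authors' scaling factor). Hepatocyte markers were all present, with Alb the most abundant, and their summed level was 109118 in control and 96507 in OTD. Alb alone stood at 81661 and 69694, so it made up most of each sum and of the difference. Of the 8 markers, 2 had log2 ratios above 0 and 6 below. Of the markers of other cell types, summed levels were 283.7 and 260.8 for Kupffer cells, 370.2 and 348.3 for sinusoidal endothelium and 554.4 and 514.7 for stellate cells. Cholangiocyte markers summed to 46.1 and 43.3, and erythroid markers to 311.1 and 387.8. Most of the erythroid difference came from Hba-a2, at 80.6 in control and 142.2 in OTD. It alone reached 1.5-fold among the 4 erythroid markers with a mean level of at least 10, and the others had ratios of 1.05 to 1.07. Of 6 intestinal markers 2 were listed, Vil1 and Fabp2, and of 6 acinar markers of the pancreas 2, Cela1 and Amy2a5. In pooled tissue, fewer cells of a type and less RNA per cell cannot be told apart.

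Per kilobase of transcript, which allows levels to be compared between genes, Ces1c was the most abundant member in both pools. Its level per kilobase was 2208 in control and 2183 in OTD. In control it was followed by Ces1d (511.3), Ces3a (493.2), Ces1b (409.2), Ces1f (307.7) and Ces2a (222.8), all as levels per kilobase. The lower members in control were Ces2e (89.8), Ces1e (83.5), Ces1g (62.3) and Ces2c (5.22). The same scale in OTD gave Ces1b (439.9) above Ces3a (425.7), and Ces1g (124.3) above Ces2e (99.3) and Ces1e (76.9). Per kilobase of coding sequence, Ces3a (507.5) and Ces1b (507.1) kept the control order in OTD. Ces1g stood in place 9 of 10 in control and in place 7 in OTD on both scales, and the spread between pools behind these places is not known.

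**Figure D2:**
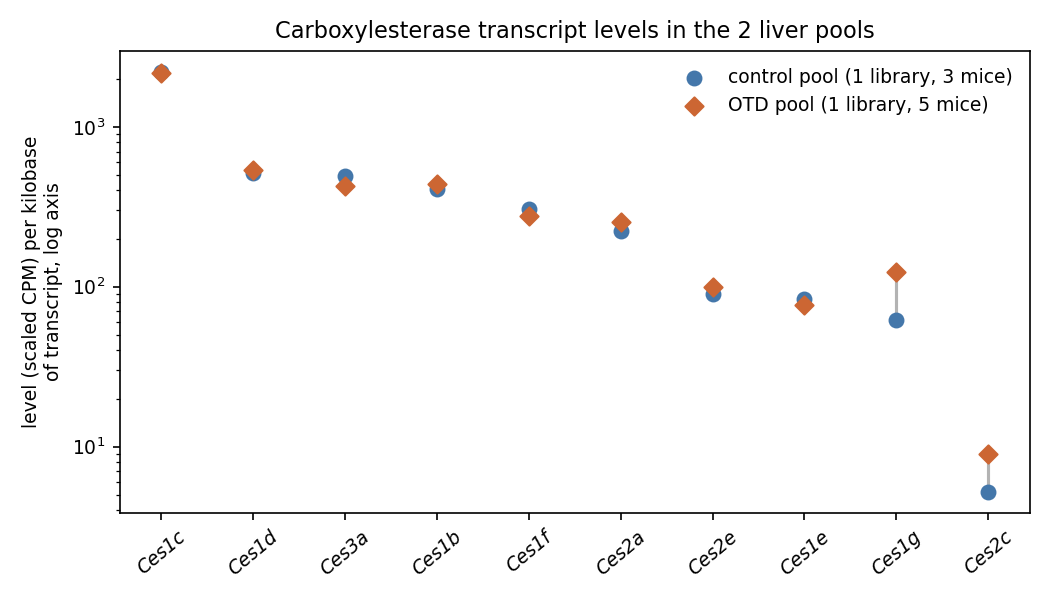
Level per kilobase of transcript (scaled CPM per kilobase, log axis) of each of the 10 genes in the control pool (circles) and the OTD pool (diamonds), 1 library each, so no error bars are drawn. Genes are ordered by the control level, from Ces1c at 2208 to Ces2c at 5.22, and the widest gaps between the pools are those of Ces1g and Ces2c.

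The comparison asked which carboxylesterase transcripts differed between livers of OTD-treated and control mice. Ces1g was 1.997-fold higher in the OTD pool and Ces2c 1.72-fold higher, while the other 8 genes had ratios between 0.863 (Ces3a) and 1.14 (Ces2a). The log2 ratios below use a pseudocount of 1, and a gene is counted at 1.5-fold or 2-fold by this log2 ratio. Genes with a mean level of at least 10 were called measured, which held for all 10 members and 7602 genes in all. At 1.5-fold, 2 of the 10 members were higher, against 1.51% of all measured genes, and 0 were lower, against 0.908%. At 2-fold 0 members were called in either direction, against 0.21% of measured genes higher and 0.21% lower. The ratio of Ces1g was 2.07 after scaling to the same total, which is past 2-fold. The median log2 ratio of the members was 0.090, with 6 above 0 and 4 below, and that of all measured genes was −0.0063 (SD across genes 0.24).

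Ces1g encodes an esterase of hepatocytes known for its part in liver lipid metabolism and lipoprotein secretion. Its level was 148.7 in control (1979 reads) and 296.9 in OTD (4444 reads). The ratio of levels was 1.997, with a 95% Clopper-Pearson interval of 1.89 to 2.11 that covers counting error only, as do all intervals here. Its log2 ratio of 0.99 was the highest of the members, in place 17 from the top among the 7602 measured genes. Of the 50-base stretches of its transcript, 1.67% occur in transcripts of other genes. This share is not particular to Ces1g, as it was 1.28% for Ces1d, 1.60% for Ces1f and 3.21% for Ces1e.

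Ces2c, described as an acylcarnitine hydrolase, was the least abundant member. It stood at 10.3 in control (137 reads) and 17.7 in OTD (265 reads), a ratio of 1.72 (1.39 to 2.13). The log2 ratio was 0.73, in place 60 from the top of the measured genes. Its interval is the widest of the 10 and reaches below 1.5. Ces2c shares 42.2% of its 50-base stretches with other genes, most of them with the pseudogene Ces2d-ps (38.2%), so its reads are less certain than the interval. Ces2d-ps itself had 2 reads in control and 5 in OTD, and the summed ratio of both genes was 1.73 (1.40 to 2.13).

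The other Ces2 members were slightly higher in the OTD pool. Ces2a, a hydrolase of neutral lipids, stood at 436.6 in control and 498.9 in OTD, a ratio of 1.14 (1.10 to 1.18). Ces2e stood at 242.4 and 268.1, a ratio of 1.11 (1.06 to 1.16). All 3 Ces2 members were above 1, and their summed level was 689.3 in control and 784.7 in OTD, a ratio of 1.14 (1.11 to 1.17). Of the 7602 measured genes 3681 were above 1, so 3 of 3 is a weak count. Ces2g, a measured Ces2 gene that is not among the members, had a ratio of 0.996 (0.904 to 1.10). The values therefore do not show a rise of the whole Ces2 subfamily. Ces2a shares 22.2% of its 50-base stretches with other genes and Ces2e 3.36%.

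Within the Ces1 cluster, the remaining 5 members had ratios close to 1 on both sides. Ces1b stood at 803.7 in control and 864.0 in OTD, a ratio of 1.08 (1.05 to 1.10). Ces1d, the triacylglycerol hydrolase that mobilizes stored lipid, stood at 1025 and 1080, a ratio of 1.05 (1.03 to 1.08). The plasma esterase gene Ces1c stood at 4036 and 3991, a ratio of 0.989 (0.977 to 1.00), which turned to 1.03 after scaling to the same total. Ces1e encodes egasyn, which holds beta-glucuronidase in the endoplasmic reticulum. It stood at 173.0 and 159.4, a ratio of 0.921 (0.870 to 0.976). Ces1f, a relative of Ces1d that also acts on triglyceride, stood at 592.7 and 532.8, a ratio of 0.899 (0.871 to 0.927). Summed over these 5 genes the level was 6630 in control and 6628 in OTD, a ratio of 1.000 (0.991 to 1.01), or 1.04 after scaling to the same total. Ces1b and Ces1c share 11.6% and 17.0% of their 50-base stretches with other genes, mostly with each other, and their summed ratio was 1.00 (0.993 to 1.01).

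Ces3a was the member with the lowest ratio. Its level was 1009 in control and 870.9 in OTD, a ratio of 0.863 (0.843 to 0.884) and a difference of −138.1. The near copy Ces3b, which has 95.3% identical coding bases, stood at 237.6 and 234.3, a ratio of 0.986 (0.939 to 1.03). Since 30.9% of the 50-base stretches of Ces3a occur in Ces3b, reads can be split between them, and the summed ratio of both was 0.887 (0.868 to 0.906).

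**Figure D3:**
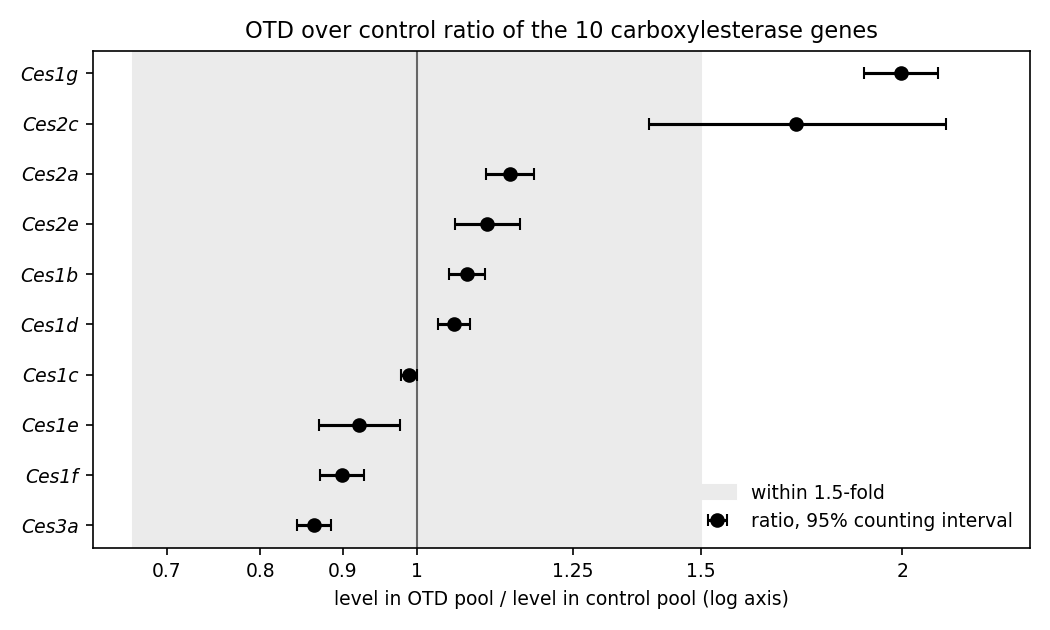
Ratio of the level in the OTD pool to that in the control pool (log axis) for each of the 10 genes, with 95% Clopper-Pearson intervals that cover counting error only. The grey band spans 1.5-fold in either direction, and only the ratios of Ces1g (1.997) and Ces2c (1.72) lie beyond it.

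At these depths, counting intervals left out 1 for 9 of the 10 members, 6 of them higher and 3 lower. The same held for 18.6% of all measured genes as higher and 19.6% as lower, and the interval narrows with the number of reads, so abundant genes pass it with small ratios. After scaling to the same total, 7 members had an interval above 1, Ces1c among them, and 2 below, since that of Ces1e then held 1. At the same upper quartile 6 were above 1 and 4 below, and Ces1c was then among those below. A scaling multiplies every ratio by 1 common factor, here 0.991 to 1.052, so only a ratio near 1, such as that of Ces1c, can change sides.

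The summed level of the 10 genes was 8477 in control and 8580 in OTD, a ratio of 1.012 (1.004 to 1.020), or 1.052 after scaling to the same total. Without Ces1g the sum was 8328 in control and 8283 in OTD, a ratio of 0.995 (0.987 to 1.00) that turned to 1.03 after scaling to the same total. In shares of the family's reads, Ces1g made up 1.75% in control (1.68% to 1.83%) and 3.46% in OTD (3.36% to 3.56%). These shares rest on 112835 family reads in control and 128447 in OTD, so their intervals are narrow, and they cover counting error only. Share intervals that do not overlap between the pools are not particular to Ces1g. They do not show a shift beyond the spread between pools, which was not measured. Ces1c made up 47.6% (47.3% to 47.9%) in control and 46.5% (46.2% to 46.8%) in OTD. Ces3a made up 11.9% (11.7% to 12.1%) and 10.2% (9.99% to 10.3%). The family as a whole took 0.832% of all control reads and 0.875% of all OTD reads.

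Besides Ces3b, the listed family members outside the 10 were Ces2g and 4 genes near the limit of detection. Ces2g stood at 60.2 in control and 59.9 in OTD, a ratio of 0.996 (0.904 to 1.10). Ces1a had 7 and 6 reads, Ces2h 1 and 3, and Ces4a 3 and 7, and a difference in these genes was not detectable at this depth. Ces2d-ps had the 2 and 5 reads given above.

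Of the Ces1 genes listed in the table, Ces1g is the last along the chromosome, at 93302369 to 93337308, after Ces1f (0.899). Ces2c, at 104847068 to 104854483, lies between Ces2a and Ces2e among the measured genes, and the pseudogene Ces2d-ps lies between Ces2c and Ces2e. On the outer side of Ces2a, Pdp2 had a ratio of 0.668 (0.604 to 0.739), with levels of 67.9 and 45.4. Beyond Ces4a, Cbfb had 0.828 (0.686 to 1.00) and D230025D16Rik 1.05 (0.973 to 1.14). The remaining 3 of the neighbours, taken as 3 listed protein-coding genes on each side of this cluster, were below a mean level of 10.

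**Figure D4:**
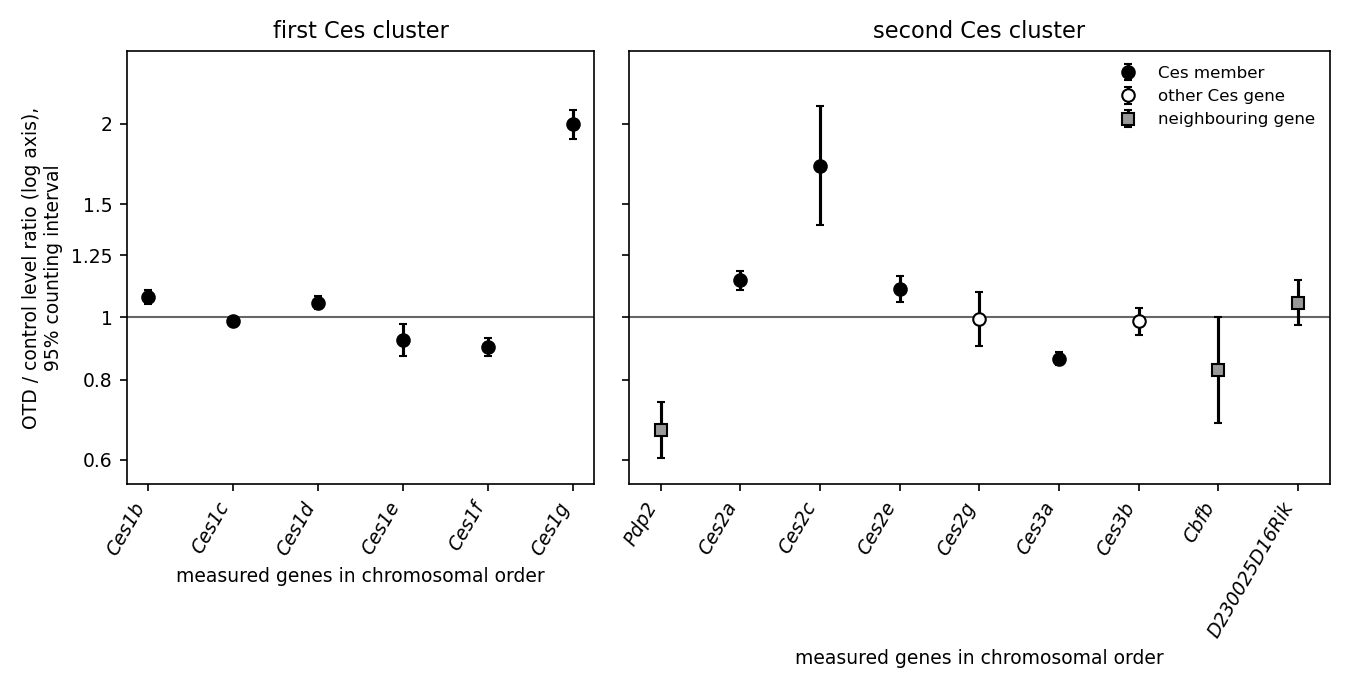
OTD over control level ratio (log axis) with 95% counting intervals for the measured genes of the 2 Ces clusters and the neighbours of the second, placed in chromosomal order and not to distance. Filled circles are the 10 members, open circles Ces2g and Ces3b, and grey squares neighbouring genes of the second cluster, with Ces1g and Ces2c the only points above 1.5.

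Of 13 measured esterase and amidase genes outside the family, 0 reached 1.5-fold in either direction, against 1.51% of all measured genes higher and 0.908% lower. At those shares a count of 0 is usual for a list this short, also for the lipase genes below. Of the 13 genes, 3 had log2 ratios above 0 and 10 below, and the median was −0.077. Ache, below the measured limit, had 3 reads in control and 9 in OTD, too few to show a difference. Aadac, an arylacetamide deacetylase that like the carboxylesterases hydrolyses amides of aromatic amines, stood at 265.4 in control and 223.4 in OTD, a ratio of 0.842 (0.803 to 0.883). The butyrylcholinesterase gene Bche had a ratio of 0.853 (0.815 to 0.893), and Pon1, the most abundant of the list, 0.964 (0.937 to 0.992). Lipase genes gave 0 higher and 0 lower at 1.5-fold among 13 measured, with a median of −0.062 that turned to 0.010 after scaling without Rn45s, the ribosomal RNA precursor. Pnpla3, below the measured limit, stood at 2.63 in control and 8.28 in OTD, a ratio of 3.15 (2.15 to 4.73). Mgll, which cleaves monoglycerides, had a ratio of 0.786 (0.744 to 0.830), and Lpl 1.34 (1.12 to 1.61). Lipa, the lysosomal acid lipase gene and the most abundant of the list, had 0.968 (0.931 to 1.01).

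A list drawn up for lipoprotein assembly and triglyceride storage had a median log2 ratio of −0.14 over 14 measured genes. It also holds Acat1 and Acat2, which encode acetyl-CoA acetyltransferases of ketone body and sterol synthesis and not of either function. At 1.5-fold 1 gene was higher, Acat2 with a ratio of 1.56 (1.41 to 1.74), and 2 were lower. Over all measured genes 1.51% were higher and 0.908% lower by this rule. Gpam, a glycerol-3-phosphate acyltransferase gene of triglyceride synthesis, had a ratio of 1.502 (1.42 to 1.59) and with the pseudocount a log2 ratio of 0.58, just short of the call. The lower genes were the lipid droplet coat gene Plin5, from 76.0 to 32.9, and the phosphatidate phosphatase gene Lpin1, from 547.5 to 362.2. Apob, the most abundant of them, had a ratio of 0.868 (0.863 to 0.874).

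Among receptors and regulators known to act on Ces genes, 0 of 14 measured genes passed 1.5-fold, with a median of −0.14. Over all measured genes 1.51% were higher and 0.908% lower by this rule, so a count of 0 is usual for a list this short. Nfe2l2, which encodes NRF2, had a ratio of 1.13 (1.04 to 1.23). The receptor genes Nr1i2 (PXR) and Nr1i3 (CAR) had ratios of 0.856 (0.780 to 0.939) and 0.741 (0.683 to 0.803). Hnf4a, the most abundant of the list, stood at 948.1 in control and 669.9 in OTD, a ratio of 0.707 (0.688 to 0.725). Ahr had 1.42 (1.30 to 1.55). Among other drug-metabolizing genes, 5 of 15 measured were at least 1.5-fold higher and 0 lower, with a median of 0.22. This list, like the others, was chosen with earlier results of these data known, so its count and median are a description only. These 5 were Cyp2b10 (5.29), Gstm3 (4.03), Cyp2c29 (2.97), Gsta2 (1.99) and Gstm1 (1.81), all as ratios of levels, compared with 1.997 for Ces1g. Cyp2e1, the most abundant of this list, had a ratio of 0.790 (0.782 to 0.798).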

How the data were processed

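Liver RNA was sequenced as 1 pooled library per group, with ribosomal RNA depleted and a directional kit, starting from 200 ng of RNA, per the labels' protocols. The values in the deposited table are a signal that the authors derived from read counts, 1 per gene symbol and library. The mm10 build and the tools edgeR, RSEM, Bowtie2 and Trimmomatic 0.38 are named without role or order, per the submitters' processing notes. Which annotation, gene filter and strand setting the authors used is not given in the sources used here. Within a tolerance of 1e-06, 100% of values in both columns were a whole number times the value of 1 read, so reads were recovered. Column sums gave scaling factors of 0.981 (control) and 1.02 (OTD), and TMM factors computed again with edgeR 4.0.16 on the listed genes came out at the same values.

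Columns were assigned by their words Ctrl and OTD, and the word Wild in both names was not used. With 1 library per group there is no residual degree of freedom, so no test was run. Each level ratio has a 95% interval, from the exact Clopper-Pearson limits of the OTD share of a gene's reads. Log2 ratios used a pseudocount of 1, and 3 reads are worth a level of 0.225 (control) or 0.200 (OTD). The members and the 13 gene and marker lists were chosen with earlier results of these data known. Cell type marker lists are given as sums, with single values for Alb and Hba-a2, which were picked after their values were seen. Otherwise named genes were the 10 members, the other listed Ces genes and the measured genes among the 3 neighbours on each side of the second cluster. Per list, its most abundant gene and genes from among the 4 with the largest absolute log2 ratios were also named. Of those 4 per list, Nr0b2 (ratio 0.728), Pnpla6 (1.29) and Notum (0.843) were not named in the results. Neighbours of the Ces1 cluster are not reported here. Acat1, Nfe2l2, Nr1i2 and Gstm1 were named outside this rule, after their values were seen. No genes of like pattern were sought, since 2 libraries give 1 ratio per gene.

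Transcripts, coding sequences and coordinates came from GENCODE M21 on GRCm38, which matched 14732 symbols (96.0%), and lengths were those of the longest protein-coding transcript. Coding sequences were aligned globally with Biopython 1.88. Shared sequence was measured as the share of 50-base stretches found in transcripts of other genes. Promoters came from RefSeq. These are reference sequences, not those of the mice used. The ratio and interval code was tested on simulated data. Computation used scipy 1.17.1, pandas 2.3.3 and numpy 2.4.6 in Python 3.11.15, and figures matplotlib 3.10.9.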

Additional observations from a re-analysis of the deposited data

How the results depend on the processing

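Alternatives tried were other scalings, pseudocounts of 0.5 and 10, a mean level of at least 50 or no filter, smaller and larger fold rules, and other bases for shares and order. The ratio of Ces1g ranged from 1.98 (same upper quartile) to 2.10 (same total without Rn45s). The summed ratio of the family was 1.052 at the same total, 1.065 when Rn45s was left out of it and 1.003 at the same upper quartile. The median log2 ratio of the members was 0.15 and 0.16 under these scalings to a total, and 0.076 at a mean level of at least 50. Of 40 member ratios under a scaling other than TMM, 27 stayed within their counting interval and 13 moved beyond it. Each scaling applies 1 common factor to all members, so this count follows the width of the intervals, and thus read depth. It is not a measure of how robust the ratios are. The median log2 ratio of all measured genes was 0.047 at the same total and 0.065 when Rn45s was left out of it, against −0.0063. The count of 2 higher members became 1 with a pseudocount of 10 and 1 at a mean level of at least 50, in each case without Ces2c, and 0 under the 2-fold rule. Over all listed Ces genes the share of Ces1c was 46.0% in control and 45.0% in OTD, and that of Ces1g in OTD 3.34%. Per kilobase the share of Ces1c was 50.3% and 49.3%, and that of Ces1g 1.42% and 2.81%. No paired analysis was possible because each group had 1 library. Variation between mice, pools and library preparations was not measured, and depth limits Ces2c most.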
